A study of Mus musculus with 40 samples.

Results

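The genes described here are 39 type I interferon response genes, chosen by name with earlier results of these data known. Counts of them set beside shares of all genes are therefore descriptive and not a test of the list. The 39 genes were matched to the Ensembl identifiers of the count files. They comprise the 2 receptor subunits, 3 transcription factors of the pathway, 4 sensors of viral nucleic acid and 30 further antiviral or interferon-stimulated genes. All 39 were found among the 55359 genes listed, and all 39 were among the 17345 genes that passed the filter on low counts. They were followed in the right kidneys of 40 male C57BL/6NCrl mice in 8 groups of 5, with 1 RNA sequencing library per mouse. Mice received sesame oil (the vehicle group) or the dioxin TCDD in sesame oil at 0.03, 0.1, 0.3, 1, 3, 10 or 30 µg/kg by gavage, every 4 days for 28 days. Dosing began at an age of 30 days and kidneys were taken at 58 days. All groups share sex, strain, supplier, diet and vehicle, and each dose was sampled at 1 time point, so no course over time can be read from these libraries. RNA came from pieces of whole kidney. A higher level of a gene in such tissue can come from more cells of a type or from more RNA per cell, and these cannot be told apart.

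Type I interferons are cytokines released when cells detect foreign or misplaced nucleic acid. They bind a receptor built from IFNAR1 and IFNAR2, whose kinases JAK1 and TYK2 phosphorylate STAT2. With IRF9 it enters the factor ISGF3, which binds the interferon-stimulated response element in the promoters of antiviral genes such as the IFIT, OAS and MX families. In the kidney, expression of these genes is known from viral infection, lupus nephritis and sterile tubular injury. TCDD is a ligand of the aryl hydrocarbon receptor, and Cyp1a1, which encodes a cytochrome P450 enzyme, is the standard target gene of that receptor.

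Promoter sequences show what the interferon-stimulated response element looks like in these genes. RefSeq promoters (GRCm38.p6, 250 bases before to 50 after each start site) were matched by symbol for 29 of the 39 genes. The core letters GAAA, then any pair of bases, then GAAA, searched on both strands with overlapping matches allowed, were present in 12 of these 29 promoters (41.4%), against 3.99% of the promoters of 27025 genes. The promoters of 5 genes are printed with that core in capitals, and 1 without it for contrast, each from 150 bases before the start site up to the base before it, written 5′ to 3′ on the gene's strand. A capital run that begins with TTTC is the same core read on the opposite strand.
Isg15: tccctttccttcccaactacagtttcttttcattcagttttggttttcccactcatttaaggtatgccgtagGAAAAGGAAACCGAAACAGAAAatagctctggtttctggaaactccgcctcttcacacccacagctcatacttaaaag
Ifit3: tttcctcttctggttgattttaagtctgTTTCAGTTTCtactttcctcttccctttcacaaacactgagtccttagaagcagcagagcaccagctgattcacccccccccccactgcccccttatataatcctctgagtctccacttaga
Ifit1: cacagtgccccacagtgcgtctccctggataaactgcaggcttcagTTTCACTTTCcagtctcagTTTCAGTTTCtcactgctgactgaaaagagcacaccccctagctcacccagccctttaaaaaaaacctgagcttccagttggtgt
Bst2: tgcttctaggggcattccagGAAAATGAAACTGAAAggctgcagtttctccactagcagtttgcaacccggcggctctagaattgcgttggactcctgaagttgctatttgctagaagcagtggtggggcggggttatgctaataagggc
Oas1a: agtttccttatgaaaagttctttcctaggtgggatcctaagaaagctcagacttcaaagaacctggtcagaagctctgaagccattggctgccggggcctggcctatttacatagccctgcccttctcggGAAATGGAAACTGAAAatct
Lgals3bp: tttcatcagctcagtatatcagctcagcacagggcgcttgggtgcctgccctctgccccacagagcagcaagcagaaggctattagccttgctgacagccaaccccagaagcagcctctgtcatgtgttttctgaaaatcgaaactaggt
Isg15 (GRCm38.p6, chr4:156200819-156200968, minus strand) holds 3 overlapping matches of the core, the first at 78 bases before the start site. Ifit3 (chr19:34583379-34583528, plus strand) shows 1 match, and a further match crosses the left edge of the printed stretch. Ifit1 (chr19:34640739-34640888, plus strand) holds 2 separate matches on the opposite strand. Bst2 (chr8:71537473-71537622, minus strand) and Oas1a (chr5:120907526-120907675, minus strand) each hold 2 overlapping matches. Lgals3bp (chr11:118401960-118402109, minus strand) has no exact match in the stretch shown or in the remainder of its promoter entry. Near its start site the letters gaaaatcgaaa hold both GAAA runs with 3 bases between them instead of a pair. The letters TTCNNNGAA, the core of the gamma-activated site, were in 9 of the 29 promoters, against 9.55% of all promoters, and in Bst2 such a match overlaps the interferon-stimulated core. The letters GCGTG, the core of the dioxin response element bound by the aryl hydrocarbon receptor, were in 12 of the 29 (41.4%), against 35.2% of all promoters. These are matches of letters in a fixed window and not measured binding sites.

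Libraries held 15278423 to 25575317 gene counts, and mitochondrial genes took 7.31 to 11.3% of them. Proximal tubule markers (Lrp2, Cubn, Slc34a1 and Slc5a2) summed to 6870 to 13100 CPM (counts scaled to the size of the library) over the 40 libraries, so the tubule that makes up most of the kidney was present in each. Cyp1a1 lay at 1.15 to 4.00 CPM in vehicle libraries and overlapped with them at 0.03 µg/kg (1.28 to 4.02 CPM) and 0.1 µg/kg (3.94 to 6.71 CPM), where edgeR did not call it, though at 0.1 µg/kg its unadjusted p was 0.00016. It was clear of vehicle from 0.3 µg/kg (13.9 to 29.7 CPM), at 87.1 to 118 CPM at 1 µg/kg and 2070 to 3000 CPM at 30 µg/kg. Replicate 3 at 30 µg/kg stood apart for the interferon response genes, as described below. Results that rest on it are given with and without it.

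No interferon response gene was called different from vehicle at 0.03, 0.1 or 0.3 µg/kg. The first genes rose at 1 µg/kg, among them Stat2, Irf9, Ifit1 and Parp14, and most of the 39 had risen at 10 µg/kg, where Ifit1 was 4.60-fold, Isg15 4.30-fold and Irf7 3.50-fold above vehicle. Fitted levels were lower at 30 than at 10 µg/kg for nearly all of them, and 1 gene passed the test of that step. A gene was called higher or lower when its adjusted p from edgeR's quasi-likelihood test, corrected over all 17345 genes by the Benjamini-Hochberg method, was under 0.05. With that rule 0 of 39 were called at each of the 3 lowest doses, where 1, 2 and 1 of them had an unadjusted p under 0.05 and DESeq2 also called 0. The background over all genes was 0% higher and 0% lower at 0.03 and at 0.1 µg/kg, and 0.00577% higher and 0% lower at 0.3 µg/kg. At 1 µg/kg 9 of 39 rose (0.507% of all genes rose and 0.00577% fell), and at 3 µg/kg 17 rose (1.03% and 0.0634%), or 10 without 3 µg/kg replicate 5 and 11 without vehicle replicate 2. At 10 µg/kg 32 rose (3.82% and 0.997%), and at 30 µg/kg 28 rose (8.39% and 7.55%). Without replicate 3 at 30 µg/kg, 29 rose at that dose. None of the 39 was called lower than vehicle at any dose by edgeR, or had an unadjusted p under 0.05 in that direction at 1 µg/kg or above.

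**Figure D1:**
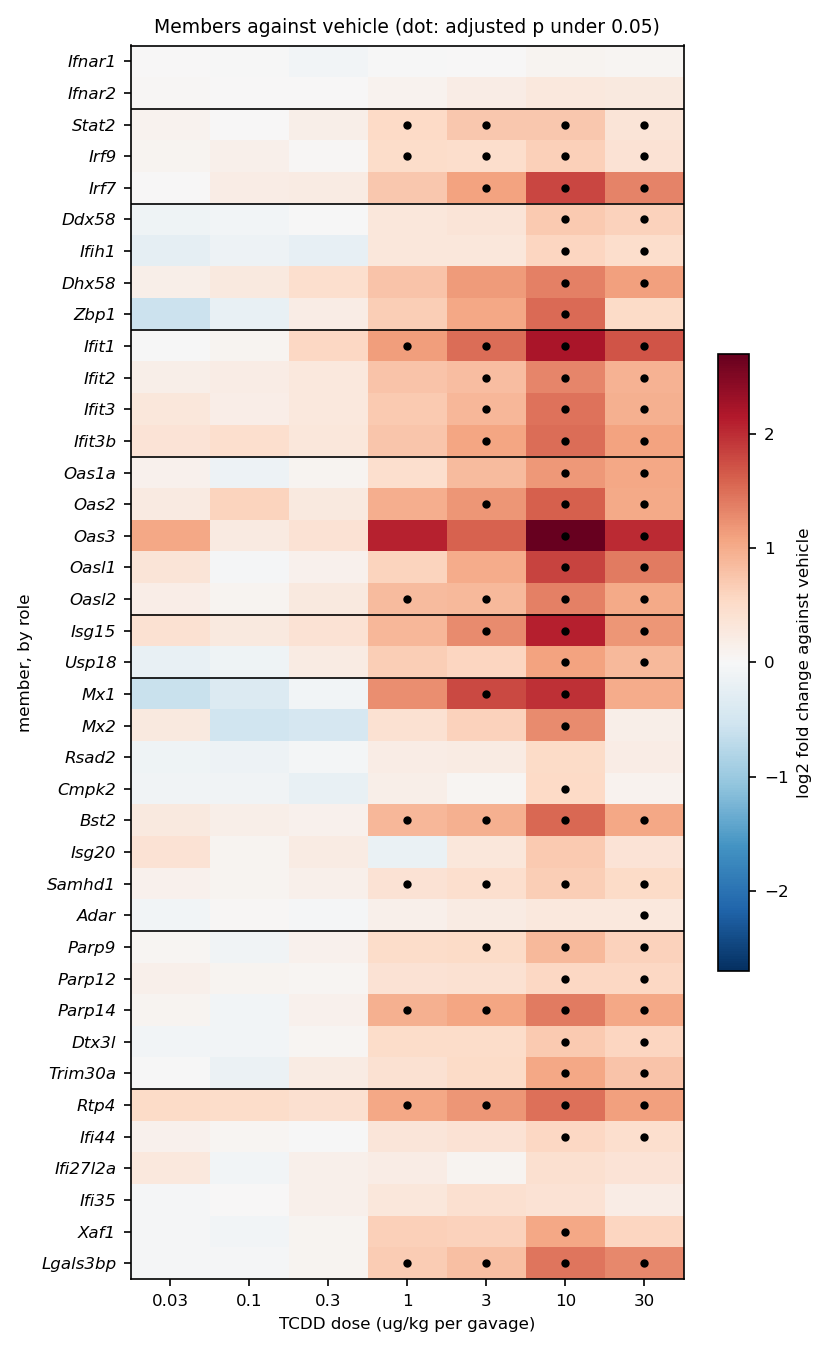
Heat map of the log2 fold change against vehicle (colour) for each of the 39 genes (rows, grouped by role) at the 7 TCDD doses (columns, µg/kg per gavage). Black dots mark an adjusted p under 0.05. Dots first appear at 1 µg/kg, in 9 genes, and are most frequent at 10 µg/kg, in 32.

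The median log2 fold change over the 39 genes was 0.08, 0.00 and 0.12 at the 3 lowest doses, and then 0.54 at 1, 0.63 at 3, 1.10 at 10 and 0.63 at 30 µg/kg. Over all genes tested the median lay between -0.01 and 0.01 at 1 to 30 µg/kg. A trend over the rank of the dose was called rising for 36 of 39 genes, against 11.0% of all genes rising and 8.84% falling. The trend calls of Ifi35 (7 fits), Mx2 (6) and Cmpk2 (1) were lost when single vehicle, 10 µg/kg or 30 µg/kg libraries were left out, and that of Ifnar2 when the 30 µg/kg group was left out (edgeR adjusted p = 0.0804). The exceptions were the receptor gene Ifnar1, the exonuclease gene Isg20 and Ifi27l2a. The group mean was highest at 10 µg/kg for 36 genes, at 30 µg/kg for Adar and Parp12, and at 3 µg/kg for Ifi35. With replicate 3 at 30 µg/kg left out, it was highest at 10 µg/kg for 34 genes and at 30 µg/kg for 4. The share of all genes with their highest mean at 10 µg/kg is not given here. The 39 genes moved together within libraries, so these counts are not separate observations of a peak.

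The lowest dose at which each gene was called sorts them into steps. Stat2, Irf9, Ifit1, Oasl2, Bst2, Samhd1, Parp14, Rtp4 and Lgals3bp were called from 1 µg/kg. Irf7, Ifit2, Ifit3, Ifit3b, Oas2, Isg15, Mx1 and Parp9 followed at 3 µg/kg. A further 15 genes, among them all 4 nucleic acid sensors, were first called at 10 µg/kg, and Adar only at 30 µg/kg. Ifnar1, Ifnar2, Rsad2, Isg20, Ifi27l2a and Ifi35 were called at no dose. All 9 genes called at 1 µg/kg were called again at 3 µg/kg, all 17 called at 3 µg/kg again at 10 µg/kg, and 27 of the 32 called at 10 µg/kg again at 30 µg/kg. A step is a place where a threshold was passed and not a measured difference between genes. The interferon-stimulated core was in 3 of 7 genes with a promoter entry called from 1 µg/kg, in 3 of 5 called from 3 µg/kg and in 5 of 11 called from 10 µg/kg.

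Neither receptor subunit passed the test at any dose. Ifnar1 was at 50.0, 47.5, 44.2, 50.3 and 50.8 CPM in the vehicle libraries and at 55.8, 43.9, 51.7, 52.9 and 49.5 CPM at 10 µg/kg, so the groups overlapped. The difference at 10 µg/kg came to 0.07 on the log2 scale (SE 0.06, edgeR adjusted p = 0.71), with an approximate 95% interval of 0.959 to 1.14 on the fold scale. Ifnar2 was at 14.5 to 15.6 CPM in vehicle and at 16.2 to 20.9 CPM at 10 µg/kg. All 5 libraries at 10 µg/kg lay above all 5 vehicle libraries, and the difference of 0.27 (SE 0.12, n = 5 per group) missed the edgeR threshold at an adjusted p = 0.25. Part of Ifnar2, 9.46% of its exonic bases, is shared with the gene model Gm21970.

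The transcription factors rose, and Irf7 rose by the most. Irf7, the factor that amplifies interferon production and is itself interferon-inducible, was at 11.9, 9.47, 9.85, 9.93 and 8.50 CPM in vehicle. At 1 µg/kg it was at 18.5, 16.7, 12.5, 15.3 and 19.2 CPM. At 10 µg/kg it was at 37.3, 28.8, 43.3, 37.7 and 27.0 CPM, and at 30 µg/kg at 33.9, 29.8, 12.5, 22.5 and 27.2 CPM. Every treated library at these doses lay above the vehicle libraries, and the lowest value at 30 µg/kg was replicate 3. The fold change at 10 µg/kg was 3.50 (log2 1.81, SE 0.19, edgeR adjusted p = 6.64e-09). At 1 µg/kg it was 1.65 and missed the threshold (edgeR adjusted p = 0.068). Stat2, the ISGF3 subunit specific to type I and type III signalling, was at 19.8 to 24.5 CPM in vehicle and reached 1.46-fold at 1 µg/kg and 1.65-fold at both 3 and 10 µg/kg. At 30 µg/kg it was at 30.3, 29.0, 27.9, 25.9 and 29.0 CPM, above vehicle in every library, with a fold change of 1.27 whose call was lost without vehicle replicates 2 or 3. Irf9, the subunit that gives ISGF3 most of its DNA binding, rose 1.42-fold at 1 µg/kg and 1.57-fold at 10 µg/kg. Its call at 1 µg/kg was lost in 8 of the 10 fits that left out 1 library, those without vehicle replicates 2, 3, 4 or 5 or without 1 µg/kg replicates 1, 2, 4 or 5. The adjusted p over all alternatives reached 0.17, and its log2 fold change stayed between 0.41 and 0.58 over the left-out libraries. The Irf9 calls were also lost at 3 µg/kg in 5 such fits (without 3 µg/kg replicates 2 or 5 or vehicle replicates 2, 3 or 5) and at 30 µg/kg in 3 (without 30 µg/kg replicates 2 or 4 or vehicle replicate 5). At 1, 3 and 30 µg/kg they were lost too with only the 2 groups fitted or with counts from 1 strand.

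**Figure D2:**
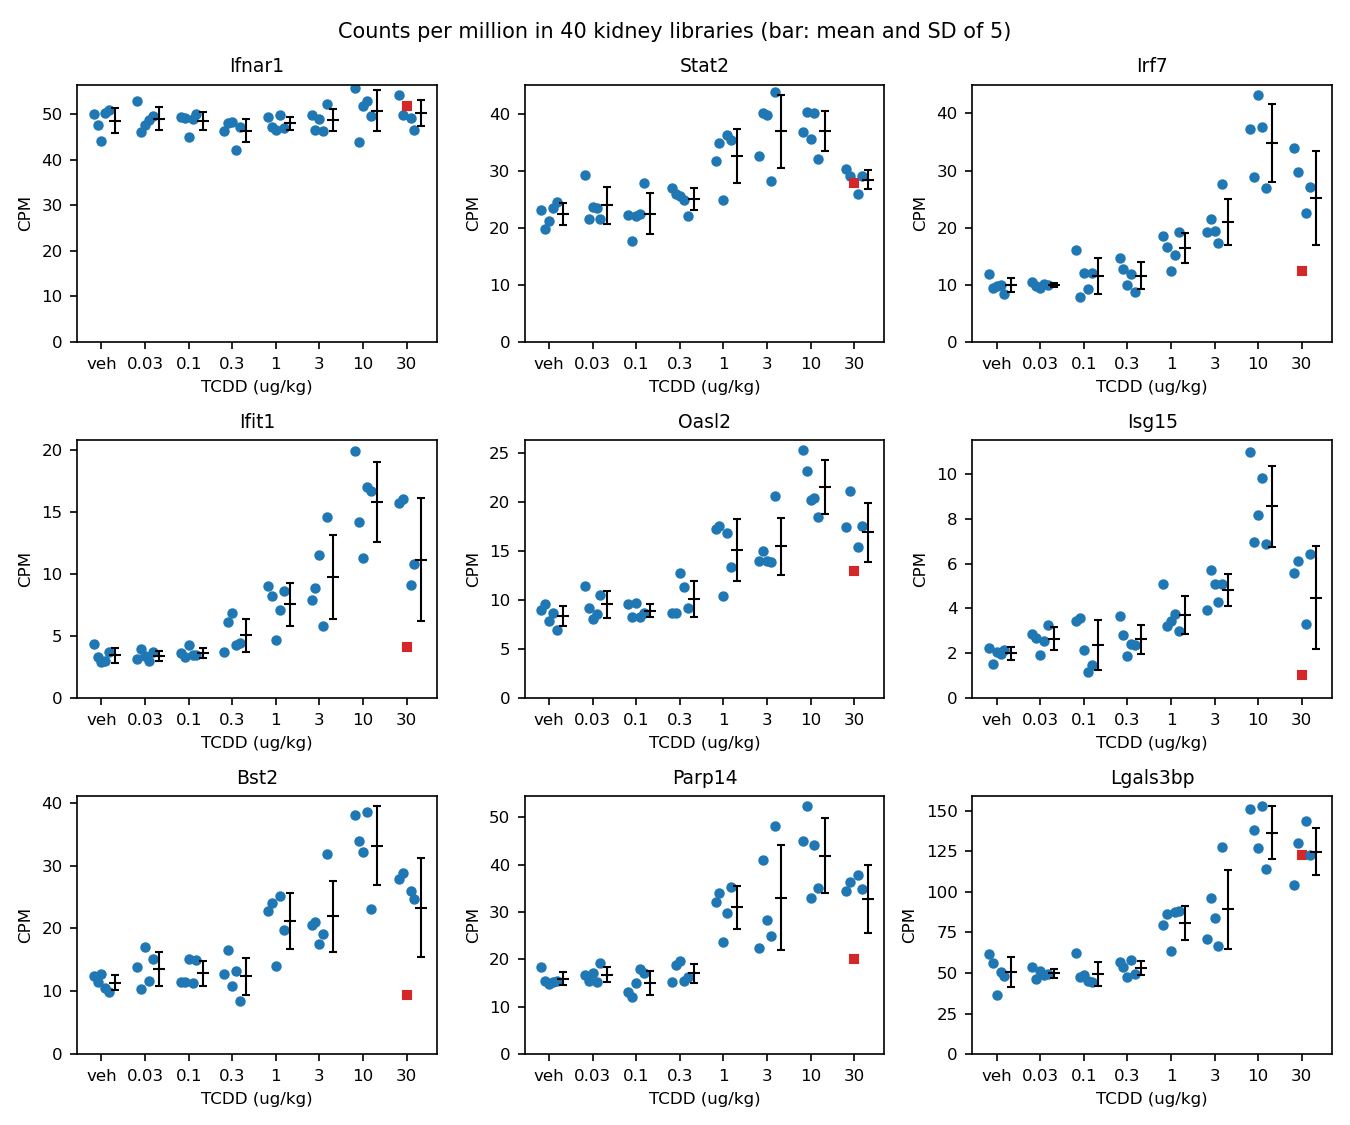
CPM (vertical axes, each from 0) of 9 genes in the 40 libraries by dose (horizontal axes, µg/kg). Circles are libraries, the red square is replicate 3 at 30 µg/kg, and bars give the mean and SD of 5. Ifnar1 is flat, and the red square lies at 1.02 CPM for Isg15 and 12.5 CPM for Irf7, the lowest of its group in each.

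All 4 nucleic acid sensors rose at 10 µg/kg. Ddx58, which encodes the RNA sensor RIG-I, was at 28.3 to 30.8 CPM in vehicle, at 43.2, 47.0, 45.0, 46.8 and 44.3 CPM at 30 µg/kg, and at 41.4 to 52.9 CPM at 10 µg/kg. Its vehicle libraries were close to each other, and the groups at 10 and 30 µg/kg did not overlap with them. The fold change was 1.63 at 10 µg/kg (edgeR adjusted p = 1.23e-06) and 1.54 at 30 µg/kg. Replicate 3 at 30 µg/kg, at 45.0 CPM, was not low for this gene. Ifih1, which encodes the sensor MDA5, rose 1.50-fold at 10 µg/kg, a call lost with counts from 1 strand (edgeR adjusted p = 0.0994), as was that at 30 µg/kg (0.0631). Dhx58, which encodes LGP2, a regulator of both, rose 2.55-fold from a vehicle level of 0.850 to 1.86 CPM. The call of Dhx58 at 10 µg/kg was lost without vehicle replicate 5, and that at 30 µg/kg in 6 fits (without 30 µg/kg replicates 1, 2 or 5 or vehicle replicates 1, 2 or 5), both were lost with counts from 1 strand, and its log2 fold change at the former dose was 1.21 to 1.47 over the left-out libraries. Zbp1, a sensor of Z-form nucleic acid that can trigger cell death, rose 2.88-fold at 10 µg/kg. At 30 µg/kg Zbp1 was at 3.92, 3.51, 2.03, 1.80 and 2.98 CPM, overlapped with vehicle at 1.73 to 2.43 CPM, and was not called (log2 0.52, SE 0.32).

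The IFIT family, proteins that bind foreign RNA and block its translation, rose in all 4 members at 3, 10 and 30 µg/kg. Ifit1 was at 4.32, 3.29, 2.89, 3.02 and 3.68 CPM in vehicle. It was at 9.04, 8.23, 4.70, 7.08 and 8.66 CPM at 1 µg/kg, and at 7.91, 8.88, 11.5, 5.82 and 14.6 CPM at 3 µg/kg. It reached 19.9, 14.2, 11.3, 17.0 and 16.7 CPM at 10 µg/kg. At 1, 3 and 10 µg/kg no library overlapped with vehicle. At 30 µg/kg it was at 15.7, 16.0, 4.14, 9.09 and 10.8 CPM, and replicate 3 alone fell inside the vehicle range. The fold changes were 2.20, 2.84, 4.60 and 3.24 at 1, 3, 10 and 30 µg/kg (edgeR adjusted p = 0.0083 at 1 and 1.45e-08 at 10 µg/kg). Ifit3, at 11.0 to 23.8 CPM in vehicle, reached 41.3 to 54.5 CPM at 10 µg/kg, a fold change of 2.75. Ifit3 and Ifit3b are near-identical neighbours, and reads that map to several places were not counted, so the division of counts between them is uncertain. At 3 µg/kg the calls of Ifit2, Ifit3 and Ifit3b were lost in 5 or 6 of the 10 fits that left out 1 library. Each of these was lost without 3 µg/kg replicates 2, 3 or 5 and without vehicle replicates 1 or 2, and Ifit2 also without vehicle replicate 4. Their calls at 30 µg/kg were lost when only that group and vehicle were fitted, with edgeR adjusted p-values of 0.0881 for Ifit2, 0.156 for Ifit3 and 0.126 for Ifit3b, and Ifit1 kept its call. Without the filter on low counts the calls of all 3 at 3 µg/kg were lost.

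The OAS family, whose enzymes make the messenger that activates RNase L and which includes the OAS-like proteins, rose in all 5 members at 10 and at 30 µg/kg. Oasl2 was at 8.99, 9.57, 7.86, 8.68 and 6.97 CPM in vehicle and at 25.4, 23.2, 20.2, 20.4 and 18.5 CPM at 10 µg/kg. Its vehicle libraries lay below every library at 1, 3, 10 and 30 µg/kg. The fold changes were 1.80, 1.84, 2.56 and 2.02 at those doses (edgeR adjusted p = 0.00048 at 1 and 5.46e-09 at 10 µg/kg). Oas3 had the largest fold change among the 39 genes at 10 µg/kg, 6.48, with a wide interval of 2.97 to 14.2. It rests on few counts, with vehicle libraries at 0.230, 0.507, 0.518, 0 and 0.453 CPM against 1.83 to 2.95 CPM at 10 µg/kg. Its call at 30 µg/kg was lost without replicate 1. With counts from 1 strand the calls at 30 µg/kg of Oas3 (edgeR adjusted p = 0.0597) and Oas2 (0.0654) were lost, and that of Oas2 at 3 µg/kg (0.104). Oasl1 rose 3.52-fold, Oas2 3.05-fold and Oas1a 2.24-fold at 10 µg/kg. Oas1a has a near-identical relative, Oas1g, and its counts are uncertain for the same reason as those of Ifit3.

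Isg15 and Usp18 form a pair. Isg15 encodes a small protein that is attached to other proteins, and USP18 removes it and also restrains the interferon receptor. Isg15 was at 2.25, 1.52, 2.07, 1.97 and 2.15 CPM in vehicle and at 11.0, 6.96, 8.16, 9.81 and 6.87 CPM at 10 µg/kg. At 30 µg/kg it was at 5.57, 6.11, 1.02, 3.31 and 6.42 CPM. The libraries at 10 µg/kg did not overlap with vehicle or with those at 30 µg/kg, and replicate 3 of the latter group was below every vehicle library. Isg15 rose 4.30-fold at 10 µg/kg (edgeR adjusted p = 1.07e-06) and 2.27-fold at 30 µg/kg (adjusted p = 0.0028). At 3 µg/kg it rose 2.42-fold, and that call was lost without vehicle replicate 2 and with counts from 1 strand. The call at 30 µg/kg was lost with only the 2 groups fitted (edgeR adjusted p = 0.0773) and with counts from 1 strand (0.0579). Usp18 rose 2.14-fold at 10 µg/kg and 1.83-fold at 30 µg/kg, from 2.17 to 3.28 CPM in vehicle.

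Among 8 other antiviral effectors, 5 rose at 10 µg/kg and 3 at 30 µg/kg. Bst2 encodes tetherin, which holds budding virus at the cell surface. It was at 12.4, 11.4, 12.8, 10.5 and 9.86 CPM in vehicle, at 38.1, 34.0, 32.2, 38.6 and 23.1 CPM at 10 µg/kg, and at 27.8, 28.8, 9.42, 25.9 and 24.7 CPM at 30 µg/kg. In the last group 4 libraries lay above all vehicle libraries, while replicate 3 lay below every vehicle library. Its fold change was 2.91 at 10 µg/kg (edgeR adjusted p = 3.88e-06). Its call at 1 µg/kg, at 1.85-fold, was lost in 9 of 10 fits that left out 1 library (all but the fit without 1 µg/kg replicate 3), and that at 3 µg/kg without 3 µg/kg replicate 5. Samhd1, which depletes the nucleotides needed for reverse transcription, lay at 26.1 to 31.7 CPM in vehicle libraries and at 42.7 to 51.8 CPM after 10 µg/kg, and rose 1.59-fold. Its call at 1 µg/kg, at 1.31-fold, was lost in 7 of 10 such fits (those without vehicle replicates 2, 3 or 5 or without 1 µg/kg replicates 1, 2, 4 or 5).

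The other members of that group varied more. Mx1 and Mx2 encode dynamin-like antiviral GTPases, of which Mx1 is known to be defective in C57BL/6 mice. Mx1 rose 3.92-fold and Mx2 2.41-fold at 10 µg/kg from vehicle levels under 2 CPM, and neither was called at 30 µg/kg. The call of Mx1 at 3 µg/kg was lost without 3 µg/kg replicates 3 or 5 or vehicle replicates 1, 3 or 5. The call of Mx2 at 10 µg/kg was lost in 6 of 10 fits that left out 1 library (without vehicle replicates 1, 2 or 3 or 10 µg/kg replicates 3, 4 or 5). The neighbouring genes Rsad2, which encodes viperin, and Cmpk2, a mitochondrial nucleotide kinase, had smaller changes than Mx1 and Mx2. Rsad2 was at 24.0 to 34.3 CPM in vehicle and at 36.0 to 49.9 CPM at 10 µg/kg. Its log2 fold change of 0.51 (SE 0.18) missed the threshold at an edgeR adjusted p = 0.1, with an interval of 1.12 to 1.80 on the fold scale. Cmpk2 rose 1.44-fold at 10 µg/kg, a call lost without 10 µg/kg replicates 2 or 3 or vehicle replicates 3 or 4, and was at 1.06-fold at 30 µg/kg. Isg20 was at 0.657 to 1.90 CPM in vehicle and at 1.62 to 3.22 CPM at 10 µg/kg, with a log2 fold change of 0.70 (SE 0.38) that was not called. Adar, an RNA-editing enzyme, was called at 30 µg/kg alone, at 1.23-fold, and was at 1.22-fold at 10 µg/kg. That call was lost without 30 µg/kg replicates 1 or 4 or vehicle replicates 3 or 5, and 16.8% of the exonic bases of Adar lie within Chrnb2 on the other strand.

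The ADP-ribosyltransferase genes and Trim30a rose together at 10 and 30 µg/kg, in all 5 members. Parp14 was at 18.3, 15.4, 14.9, 15.3 and 15.5 CPM in vehicle, at 32.1, 34.1, 23.7, 29.9 and 35.2 CPM at 1 µg/kg and at 45.0, 52.4, 32.9, 44.1 and 35.1 CPM at 10 µg/kg. At 30 µg/kg it was at 34.5, 36.4, 20.0, 37.9 and 34.8 CPM. Every library from 1 µg/kg up lay above the vehicle libraries. The fold changes were 1.96, 2.09, 2.64 and 2.07 from 1 to 30 µg/kg (edgeR adjusted p = 0.00071 at 1 and 1.81e-07 at 10 µg/kg). Parp9 and Dtx3l, which encode a complex of a PARP and a ubiquitin ligase, share a promoter region and 9.40 and 8.00% of their exonic bases with each other. At 3 µg/kg the call of Parp9 was lost without 3 µg/kg replicates 2 or 5 or vehicle replicates 2, 3 or 4. Parp9 rose 1.84-fold and Dtx3l 1.63-fold at 10 µg/kg. Trim30a, an inhibitor of NF-kappa B signalling, rose 2.05-fold.

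Of the remaining 6 genes, Lgals3bp, Rtp4, Ifi44 and Xaf1 rose at 10 µg/kg and Ifi27l2a and Ifi35 did not pass the test. Lgals3bp, which encodes a secreted glycoprotein that binds galectins, was at 61.5, 56.2, 36.6, 50.6 and 48.3 CPM in vehicle. It was at 151, 138, 127, 153 and 114 CPM at 10 µg/kg and at 104, 130, 123, 144 and 123 CPM at 30 µg/kg. Its replicate 3 at 30 µg/kg, at 123 CPM, was in the middle of its group. The fold change was 1.60 at 1, 1.77 at 3, 2.7 at 10 and 2.46 at 30 µg/kg (edgeR adjusted p = 2.39e-09 at 10 µg/kg). The call of Lgals3bp at 3 µg/kg was lost with only the 2 groups fitted (edgeR adjusted p = 0.137). Rtp4, a receptor transporter protein, rose 2.06-fold at 1 µg/kg and 2.78-fold at 10 µg/kg, and 13.9% of its exonic bases are shared with the gene model Gm45338. Ifi27l2a was at 5.23 to 9.57 CPM in vehicle and at 7.08 to 14.5 CPM at 10 µg/kg, with a log2 fold change of 0.44 (SE 0.29). Ifi35 was at 6.28 to 8.85 CPM in vehicle and at 5.79 to 11.7 CPM at 10 µg/kg. The calls of Ifi44 were lost in 6 of 10 fits that left out 1 library at 10 µg/kg and in 8 of 10 at 30 µg/kg, each time without vehicle replicates 1, 2, 4 or 5, and otherwise without 10 µg/kg replicates 2 or 5 or 30 µg/kg replicates 1, 2, 4 or 5.

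Levels can be compared between genes only per length, here as CPM per kilobase of exon. In vehicle the mean was highest for Lgals3bp at 17.8, Ifi27l2a at 16.0, Bst2 at 12.6 and Ifit3 at 10.2 CPM per kilobase. The lowest were Oas3 at 0.0483, Mx1 at 0.251 and Mx2 at 0.358. At 10 µg/kg Lgals3bp stood at 48.0, Bst2 at 36.8, Ifit3 at 28.1, Ifi27l2a at 21.6 and Isg15 at 11.3 CPM per kilobase.

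Counting genes whose 5 treated libraries all lay above all 5 vehicle libraries needs no model, and it differed most from the test at 30 µg/kg. There were 14 such genes of 39 at 1 µg/kg (1.19% of all genes), 16 at 3 µg/kg (1.67%), 34 at 10 µg/kg (4.32%) and 16 at 30 µg/kg (3.59%). Without replicate 3 at 30 µg/kg there were 26 at that dose, against 5.09% of all genes. This count was added after the values had been seen.

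Between neighbouring doses few genes passed the test. At 1 against 0.3 µg/kg 23 genes had an unadjusted p under 0.05 and a higher level, and the median log2 change over the 39 genes was 0.44. Parp14 and Lgals3bp were called higher (2 of 39, against 0.213% of all genes). Both calls moved with single libraries. The call of Lgals3bp was lost in 9 of the 10 fits that left out 1 library (all but the fit without 1 µg/kg replicate 3), and that of Parp14 without 0.3 µg/kg replicates 4 or 5. At 3 against 1 µg/kg edgeR and DESeq2 called 0 genes, 0 had an unadjusted p under 0.05, and the median was 0.09 (0.0115% of all genes were called higher). At 10 against 3 µg/kg Lgals3bp was higher (1 of 39, against 0.0922% of all genes), 18 had an unadjusted p under 0.05, and the median was 0.37. That call of Lgals3bp was lost in 8 of 10 fits that left out 1 library (all but those without 10 µg/kg replicate 3 or 3 µg/kg replicate 5). Over the wider step of 10 against 1 µg/kg, added after the values had been seen, 6 genes were higher (0.744% of all genes): Irf7, Ddx58, Ifit1, Oasl1, Isg15 and Lgals3bp. Leaving out 1 µg/kg replicate 3 took that number to 2, leaving out 1 µg/kg replicate 5 or 10 µg/kg replicate 4 took it to 3, counts from 1 strand lost the calls of all but Irf7 and Lgals3bp, and of the 6 only Irf7 and Lgals3bp were called in every fit that left out 1 library.

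From 10 to 30 µg/kg the fitted change was downward for 37 of 39 genes, with a median of -0.33, while Cyp1a1 had a fitted change of 0.69 (SE 0.20, edgeR adjusted p = 0.049), which DESeq2 did not call. The shares of all genes fitted lower, or lower at an unadjusted p under 0.05, are not given here. Over all genes, the median log2 ratio of a library to the vehicle mean (1 CPM added) lay at -0.019 to -0.001 at 10 µg/kg. At 30 µg/kg that all-gene median lay at -0.02 to 0.004. Single genes mostly did not pass the test. Stat2 alone was called lower (1 of 39, against 1.52% of all genes), at -0.38 (SE 0.11, edgeR adjusted p = 0.044), and 0 were called higher (1.19% of all genes, edgeR and DESeq2 alike, with 0 at an unadjusted p under 0.05 in that direction). The downward changes with an unadjusted p under 0.05 numbered 15. The largest fitted changes were those of Mx2 at -1.11 (SE 0.37), Zbp1 at -1.01 (SE 0.31), Mx1 at -0.97 (SE 0.41) and Isg15 at -0.92 (SE 0.27), and none of these 4 was called. Without replicate 3 at 30 µg/kg the median was -0.23, 35 of 39 were fitted lower and 0 were called by edgeR. The Stat2 call was likewise lost without 30 µg/kg replicates 4 or 5 or any of 10 µg/kg replicates 1, 2, 3 and 4, and leaving out 30 µg/kg replicate 1 or 2 raised the number called lower to 6 or 5.

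**Figure D3:**
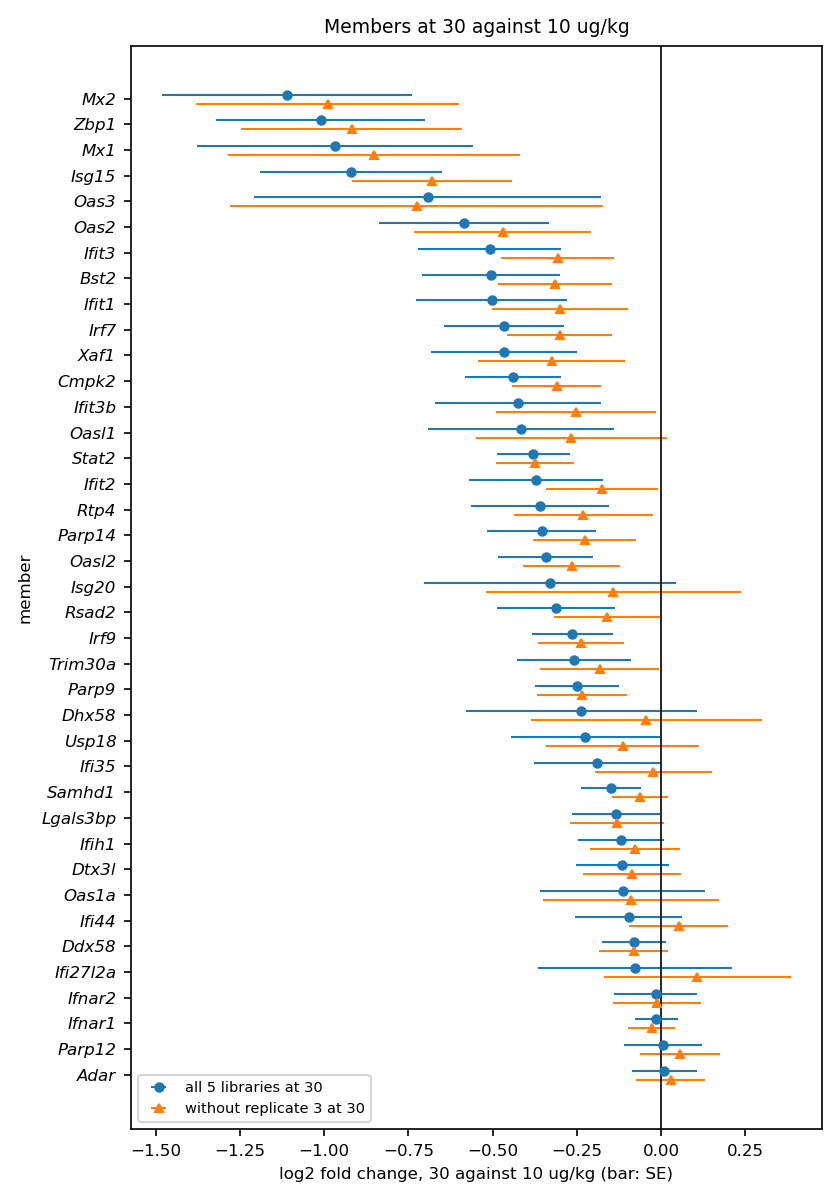
Log2 fold change at 30 against 10 µg/kg (horizontal axis, bars show the SE) for each of the 39 genes (rows), with all 5 libraries at 30 µg/kg (circles) and without replicate 3 (triangles). Most symbols lie left of 0, and the circles have a median of -0.33 and the triangles of -0.23.

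Libraries of a group differed in how far the genes moved together. For each library, the median over the 39 genes of the log2 ratio to the vehicle mean was taken, with 1 CPM added. It ran from -0.04 to 0.06 in vehicle, and from -0.09 to 0.15 at 0.03, 0.1 and 0.3 µg/kg. At 1 µg/kg it was 0.54, 0.58, 0.23, 0.47 and 0.54, and at 3 µg/kg 0.45, 0.76, 0.57, 0.32 and 0.89. At 10 µg/kg the libraries were close together at 0.83, 0.95, 0.82, 0.99 and 0.89. They spread at 30 µg/kg over 0.70, 0.85, 0.20, 0.41 and 0.66, with replicate 3 the lowest. That library was the lowest of its group for 26 of the 39 genes and the highest for 0, while it was the lowest for 24.4% and the highest for 22.3% of all genes tested. In the 1 µg/kg group, replicate 3 was likewise the lowest for 26 of 39 genes (21.8% of all genes). In the 3 µg/kg group, replicate 5 was the highest for 24 (19.4% of all genes) and replicate 4 the lowest for 20 (21.6%).

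Replicate 3 at 30 µg/kg was a treated library by its Cyp1a1 level of 2070 CPM, beside 2880, 2090, 3000 and 2640 CPM in the rest of the group. Its level of Ptprc, which encodes the leukocyte surface protein CD45, was 5.15 CPM, below the 13.2 to 19.5 CPM of the other 4 libraries and inside the vehicle range of 4.87 to 10.7 CPM. The sum of the general leukocyte markers Ptprc, Laptm5 and Coro1a was 32.8 CPM in this library. That was the lowest of a group that reached 65.8 CPM, and above the 25.8 to 32.1 CPM of the vehicle libraries. Summed over 8 macrophage markers the library was at 165 CPM, above the 82.4 to 145 CPM of the vehicle libraries and below the 190 to 224 CPM of its group. The single macrophage markers Adgre1, at 8.07 CPM in a group of 6.40 to 13.8 CPM, and C1qa, at 35.0 CPM in a group of 24.3 to 39.1 CPM, were not low in it. Lyz2, of the same list, was at 38.0 CPM, the lowest of a group that reached 62.6 CPM. The summed T and NK markers of this library, at 2.98 CPM, were the lowest of the 40 libraries. Ptprc was also the lowest of its group in 1 µg/kg replicate 3, at 10.4 CPM, and in 3 µg/kg replicate 4, at 6.83 CPM, both inside the vehicle range. The sum of Ptprc, Laptm5 and Coro1a was likewise the lowest of its group in both, at 32.3 and 35.2 CPM, but above every vehicle library. In 10 µg/kg replicate 5, the lowest of its group for 18 of the 39 genes (17.1% of all genes), Ptprc was the highest of the group, at 19.8 CPM. The sum of the general leukocyte markers there was 54.3 CPM, in a group of 52.8 to 58.0 CPM. The part of these differences in the low interferon values of these libraries was not tested.

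**Figure D4:**
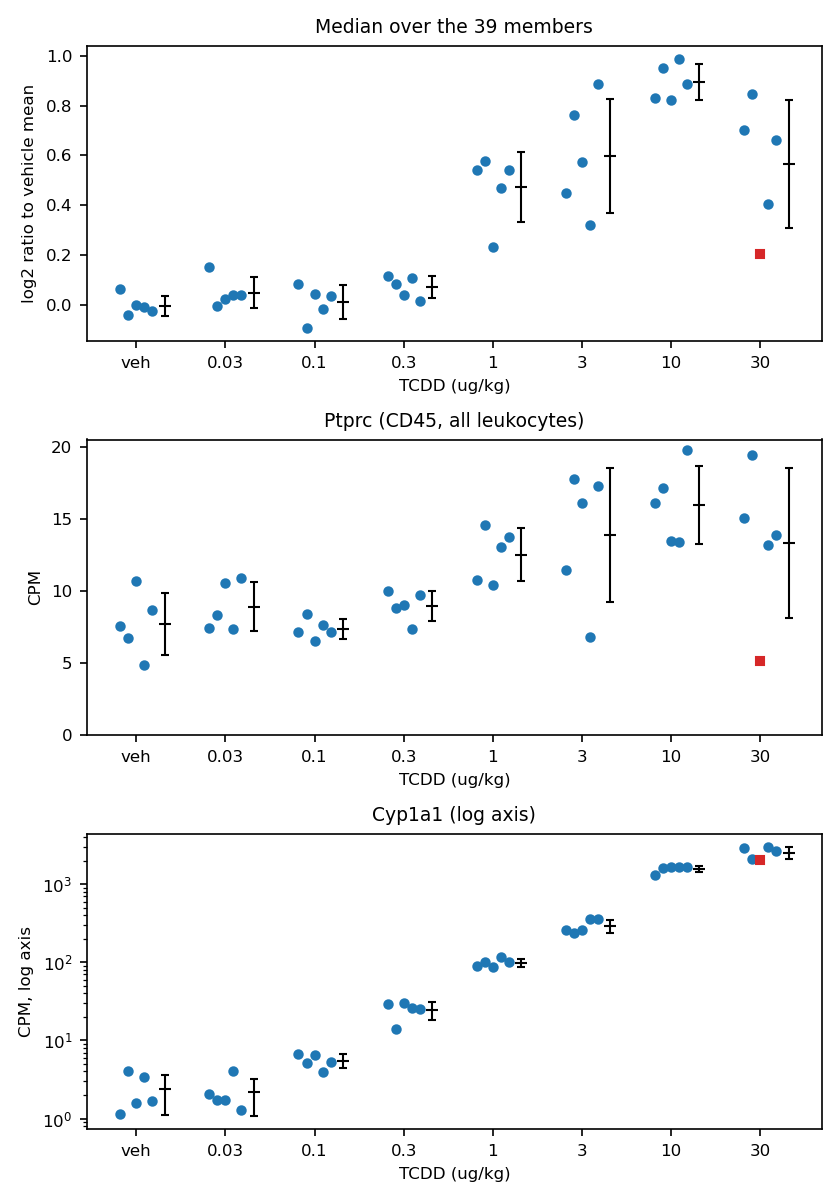
Per library (points) and dose (horizontal axes), the median log2 ratio to the vehicle mean over the 39 genes (top), Ptprc in CPM (middle) and Cyp1a1 in CPM on a log axis (bottom). Bars give the mean and SD of 5. The red square, replicate 3 at 30 µg/kg, lies at 0.20 in the top panel and 5.15 CPM in the middle panel, while at 2070 CPM in the bottom panel it lies beside replicate 2 at 2090 CPM.

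The interferons themselves were close to undetected. Of 21 listed interferon genes, 15 had 0 counts in all 40 libraries, and none of the 21 passed the filter. A count of 0 in a single library allows an expected count of up to about 3 there, and 0 in all 40 allows less per library if they share a level. Ifnb1, which encodes interferon beta, had 3 counts in all, and the 6 genes with any count summed to 97 counts over the 40 libraries. The highest single value was 7 counts. At this depth no change in the interferon genes was detectable in kidney RNA, and any interferon made in other organs would not be seen here. Reads that map to several places were not counted, so RNA of interferon genes with near-identical copies could be missed.

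The signalling and sensing genes around the 39 mostly did not pass the test, and Irf1 did from 1 µg/kg up. Ifngr1, which encodes a subunit of the interferon gamma receptor, rose at 10 and 30 µg/kg, with log2 fold changes of 0.31 (SE 0.09) and 0.61 (SE 0.09). Jak1 and Tyk2, the receptor kinases, were called at none of the 7 doses. Of 17 genes of sensing and induction, Irf1 and Irf8 rose at 1 µg/kg, and these and Tlr8 and Tlr9 rose at 10 µg/kg. Irf3, the factor that turns on interferon beta, had a log2 fold change of 0.01 (SE 0.09) at 10 µg/kg. Among 7 tested genes that restrain the response, edgeR called 0 at 1, 3 or 10 µg/kg, where 0, 1 and 3 had an unadjusted p under 0.05 and a higher level and DESeq2 called 0, 1 and 0. The highest dose raised Socs3, an inhibitor of cytokine receptor signalling, and Tiparp, a PARP that is also a target of the aryl hydrocarbon receptor. Tiparp had a log2 fold change of 0.58 (SE 0.10) there and of 0.26 (SE 0.10) at 10 µg/kg.

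Irf1 was near its highest level at 1 µg/kg. This factor, best known as a target of interferon gamma, was at 12.0, 10.4, 13.5, 11.4 and 13.1 CPM in vehicle and at 26.0, 37.9, 20.5, 28.6 and 29.0 CPM at 1 µg/kg. It was at 32.3, 31.6, 27.3, 28.9 and 23.2 CPM at 10 µg/kg, and neither group overlapped with vehicle. Its log2 fold changes at 1, 3, 10 and 30 µg/kg were 1.23, 1.06, 1.25 and 0.88 (SE 0.18 each). For comparison Ifit1 gave 1.13, 1.50, 2.20 and 1.70, Irf7 0.73, 1.09, 1.81 and 1.34, and Isg15 0.90, 1.28, 2.10 and 1.18 in the same order. Between 1 and 10 µg/kg the change was 0.01 (SE 0.17) for Irf1, against 1.07 (SE 0.23) for Ifit1, 1.08 (SE 0.18) for Irf7 and 1.20 (SE 0.27) for Isg15. The difference between these genes was not tested, and they were set side by side after their values had been seen.

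**Figure D5:**
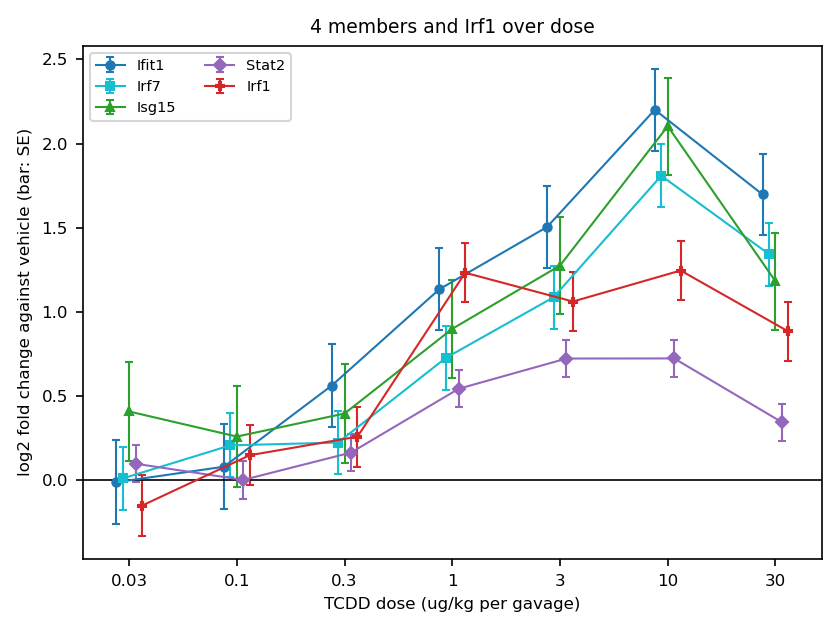
Log2 fold change against vehicle (vertical axis, bars show the SE) over the 7 TCDD doses (horizontal axis, µg/kg) for Ifit1, Irf7, Isg15, Stat2 and Irf1. Irf1 lies at 1.23 at 1 µg/kg and at 1.25 at 10 µg/kg, while Ifit1 goes from 1.13 to 2.20.

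A wider list of 50 further type I targets, of which 49 were tested, moved over the same doses. Like the 39 genes, it was chosen with earlier results of these data known. At 1 µg/kg 3 rose (5 by DESeq2), at 3 µg/kg 8 (12 by DESeq2), at 10 µg/kg 30 and at 30 µg/kg 23. Of all genes, 0.507, 1.03, 3.82 and 8.39% rose at these doses and 0.00577, 0.0634, 0.997 and 7.55% fell. Of the list, 0 were called lower by edgeR or DESeq2 at these doses, with 1 at an unadjusted p under 0.05 in that direction, at 1 µg/kg. Its median log2 fold change was 0.81 at 10 µg/kg and 0.57 at 30 µg/kg, beside 1.10 and 0.63 for the 39 genes. The 3 at 1 µg/kg were Cd274, Nlrc5 and Parp10, the first encoding PD-L1 and the second a regulator of MHC class I genes. Ifitm3, which blocks viral entry, had the lowest trend p of that list, with log2 fold changes of 0.55 (SE 0.12) at 3, 0.86 (SE 0.12) at 10 and 0.74 (SE 0.12) at 30 µg/kg.

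Markers of macrophages and of leukocytes in general moved over the same doses as the interferon response genes. Those of T and NK cells, B cells and neutrophils were not called by edgeR. Of 8 macrophage markers, 2 rose at 1 (4 by DESeq2), 5 at 3, 6 at 10 and 6 at 30 µg/kg. Their sum ranged from 82.4 to 145 CPM in vehicle, from 143 to 220 CPM at 1 µg/kg and from 194 to 237 CPM at 10 µg/kg. All 3 markers of leukocytes in general (Ptprc, Laptm5 and Coro1a) rose at 3, 10 and 30 µg/kg, and at 1 µg/kg 0 were called by edgeR or DESeq2, though all 3 had an unadjusted p under 0.05, with a median log2 fold change of 0.49. Vehicle libraries held a sum of 25.8 to 32.1 CPM of these markers, those at 1 µg/kg 32.3 to 50.2 CPM and those at 10 µg/kg 52.8 to 58.0 CPM. Of 5 tested T and NK markers edgeR called 0 at any dose, with 2 at an unadjusted p under 0.05 at 10 µg/kg, where DESeq2 called 1 of 6. Of 3 B cell markers 0 were called by either tool and 0 had an unadjusted p under 0.05. Of 3 neutrophil markers edgeR called 0, with 2 at an unadjusted p under 0.05 at 10 µg/kg, where DESeq2 called 1 of 4. Of the plasmacytoid dendritic cell list, 5 genes long, Bst2 is also among the 39, and Siglech, its defining marker, had at most 17 counts in a library and was not tested. Of 5 endothelial markers 4 rose at 10 µg/kg, and again 4 at 30 µg/kg. The distal convoluted tubule marker Slc12a3 fell at 10 µg/kg. Of 4 proximal tubule markers 1 fell at 10 µg/kg, and at 30 µg/kg 2 fell and 1 rose. The part of these cells in the rise of the interferon response genes was not tested.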

How the data were processed

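Whole-kidney RNA of 40 mice was measured by RNA sequencing, 1 library each. The deposited values are raw read counts per gene, made by the authors with FastQC 0.11.7, Trimmomatic 0.39 and STAR 2.7.3a, per the submitters' processing notes, which also name DESeq2. Those notes name both GRCm39 and mm10, so no coordinates are given for the counted genes (those of the printed promoters are RefSeq's, on GRCm38.p6), and the annotation release is not given in the sources used here. Each file holds an unstranded and a pair of stranded columns. Reads divided nearly evenly between the strands (50.4 to 51.0% sense), so the unstranded counts were used. Overlapping genes therefore cannot be told apart by strand. Lines naming no gene held 21.2 to 23.9% of each library and stayed out of library sizes. Gene names and exon lengths came from GENCODE M21, which named 52083 of the 55359 identifiers, and the 3276 unnamed ones held 0.663% of the counts.

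Genes were filtered by edgeR's filterByExpr within the 8 groups, scaled by TMM and fitted together over all 40 libraries with the robust quasi-likelihood model (edgeR 4.0.16, limma 3.58.1, R 4.3.3). Contrasts set each dose against vehicle, neighbouring doses against each other, and a trend over the rank of the dose. Adjusted p-values run over all 17345 genes tested, with a threshold of 0.05. Intervals are the estimate with its SE on a normal scale. DESeq2 1.42.0, RLE scaling, no filter, 2-group fits, a stranded column and the 40 fits leaving out 1 library were alternatives. Labels name separate mice but no cage, batch or extraction. The fit was tested on simulated data. The members and lists were chosen with earlier results of these data known. Values are given in full for the pathway's receptors, its transcription factors, Isg15 and, in each role group, the genes with the highest level and the lowest trend p. Further genes were named for extremes or after their values had been seen. Some genes of the pathway and marker lists are not reported here.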

Additional observations from a re-analysis of the deposited data

Results flagged for a closer look

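Single libraries set apart from the other 4 of their group were looked for in 120 groups (14 genes and the median over the 39 genes, at 8 doses), by the gap to the nearest library as a share of the range. There were 11 such groups, and chance gives about 1 in 20, or 6. In vehicle, replicate 1 was high for Parp14 at 18.3 CPM (next 15.5). At 0.03 µg/kg, replicate 1 was high for Stat2 at 29.3 CPM (next 23.7). At 0.1 µg/kg, replicate 3 was low for Ifnar1 at 44.9 CPM (next 49.0), and Ifit1 was at 4.3 CPM in the same library (next 3.62). Replicate 1 of that group was high for Lgals3bp at 62.3 CPM (next 48.7). At 0.3 µg/kg, replicate 1 was high for Ifit3 at 24.8 CPM (next 21.3) and replicate 3 for Samhd1 at 38.3 CPM (next 31.9). In the 1 µg/kg group, replicate 3 was low for Ifit3 at 22.2 CPM (next 30.2). In the 3 µg/kg group, replicate 5 was high for Oasl2 at 20.6 CPM (next 15.0). In the 30 µg/kg group, replicate 3 was low for Samhd1 at 30.8 CPM (next 42.2) and for Parp14 at 20.0 CPM (next 34.5).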

How the results depend on the processing

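No paired analysis was possible because the replicate numbers were given in accession order and pair no mice. The number of genes higher than vehicle stayed within 1.5 times its value at 1, 10 and 30 µg/kg and for the trend in every alternative run. At 3 µg/kg 17 became 10 with the stranded column and 10 to 20 over the left-out libraries, the lowest without 3 µg/kg replicate 5. At 1 against 0.3 µg/kg 2 became 4 with DESeq2, 1 without the filter and 0 to 5 over the left-out libraries. At 10 against 3 µg/kg 1 became 2 with DESeq2, 0 without the filter or with the stranded column, 3 with only the 2 groups fitted and 0 to 1 over the left-out libraries. The genes lower at 30 than at 10 µg/kg went from 1 to 3 with DESeq2, 2 without the filter, 0 with only the 2 groups or the stranded column and 0 to 6 over the left-out libraries. The genes higher at 10 than at 1 µg/kg went from 6 to 13 with only the 2 groups, 3 with the stranded column and 2 to 6 over the left-out libraries. Genes at 30 µg/kg with no overlap with vehicle went from 16 to 26 without replicate 3. Of the 39 genes, further losses of a call against vehicle included those of Bst2 at 1 µg/kg without the filter or with the stranded column and at 3 µg/kg with the latter, Mx1 and Parp9 at 3 µg/kg with the stranded column, Parp9 there with only the 2 groups, Cmpk2, Ifi44 and Mx2 at 10 µg/kg with the stranded column, and Adar and Ifi44 at 30 µg/kg without the filter or with only the 2 groups, Ifi44 also with the stranded column. The stranded column (counts from 1 strand) held 50.4 to 51.0% of the counts of the stranded pair, so fits with it rest on fewer counts. The causes were not tested. Over all genes, fitting only the 2 groups took the calls against vehicle from 178 to 103 higher at 3 µg/kg and from 1456 higher and 1310 lower to 631 and 338 at 30 µg/kg, those at 10 against 3 µg/kg from 16 to 101 higher, and those at 30 against 10 µg/kg from 206 higher and 263 lower to 0 and 0. The calls lower at 10 µg/kg went from 173 to 95 without the filter, and DESeq2 took those higher at 1 against 0.3 µg/kg from 37 to 58 and at 10 against 3 µg/kg from 16 to 55. No named gene reversed. Genes with few counts, such as Oas3 and Mx1, have the widest intervals at this depth.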
